A study of Mus musculus with 6 samples.

Results

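Levels of 9 genes of the sarcomeric thick filament were compared: the myosin heavy chains Myh6, Myh7 and Myh7b, the myosin light chains Myl2, Myl7, Myl3 and Myl4, and the myosin-binding proteins Mybpc3 and Mybpc2. They were taken by symbol from a gene table of 52550 rows, each symbol was on 1 row, and all 9 were among the 9907 genes tested, those whose mean reached 1 FPKM (fragments per kilobase, scaled to the size of the library, so a level per length of transcript). The samples were left ventricles of C57BL/6J mice at 12 months of age. In 3 libraries the labels give the genotype as wild-type (WT), and in 3 as PGC1alpha overexpressed (PKI); the study compares these genotypes. PGC1alpha, encoded by Ppargc1a, is a coactivator of genes for mitochondria. The promoter or cell type behind the overexpression, and whether each library came from its own animal, are not stated in the labels, so the p-values speak only to the spread among these libraries, which may be technical.

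Myosin is the motor of the heart muscle cell. Each molecule has a pair of heavy chains, and each heavy chain carries a regulatory and an essential light chain that stiffen and tune its lever arm, while myosin-binding protein C lies across the thick filament and sets how readily the heads reach actin. In mice the fast alpha heavy chain, Myh6, dominates the adult ventricle, the slower beta heavy chain, Myh7, is the fetal form and is known to return under load, and separate light chain genes serve ventricle (Myl2, Myl3) and atrium (Myl7, Myl4).

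Ppargc1a itself did not show the labelled overexpression. Its level was 14.2, 12.8 and 12.4 FPKM in the WT libraries and 11.6, 11.8 and 11.4 in the PKI-labelled libraries, so each PKI-labelled library lay below each WT library (log2 change −0.16, SE 0.07, limma adjusted p = 0.0967; −0.44 after scaling, adjusted p = 0.00521). Directions below are therefore those of libraries by their label. The FPKM of all genes summed to between 708058 and 767757 per library, and the sequencing depth is unknown. The median log2 change of all 9907 tested genes was 0.21 as deposited and −0.02 after each library was divided by its size factor by the median-of-ratios method (from 0.898 to 0.922 for WT and from 1.102 to 1.133 for PKI-labelled libraries). Most log2 changes are therefore given as deposited and after this scaling. Log2 changes are of FPKM + 1, and a fold is the quotient of the group means in FPKM, as deposited only. A gene was called at a limma p under 0.05 after Benjamini-Hochberg adjustment over all tested genes.

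The 3 heavy chain genes carry microRNA genes. Their mature sequences from RefSeq (GRCm38.p6) are shown because they tie these myosin genes to one another outside the coding sequence. Capitals mark the seed, bases 2 to 8, by which a microRNA pairs with its targets.
miR-208a-3p, in Myh6, chr14:54949072-54949093, minus strand: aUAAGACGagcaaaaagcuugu
miR-208b-3p, in Myh7, chr14:54975710-54975731, minus strand: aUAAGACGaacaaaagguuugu
miR-499-5p, in Myh7b, chr2:155622893-155622913, plus strand: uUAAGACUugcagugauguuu
The seed UAAGACG was the same in miR-208a-3p and miR-208b-3p, which were equal at 19 of 22 positions, and miR-499-5p had the seed UAAGACU. Compared base by base from the first, miR-499-5p was equal to miR-208a-3p at 12 positions. Of the annotated exons of each host gene, 0 overlapped the hairpin, so each hairpin lies in an intron. These libraries do not measure mature microRNAs. The row of the Mir208b hairpin was at 4.96, 2.22 and 1.89 FPKM in WT, against 2.86, 1.45 and 3.08 in the PKI-labelled libraries, with overlapping groups, and Mir499 was listed at 0 in all 6 libraries.

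Myh6 (ENSMUSG00000040752) and Myh7 (ENSMUSG00000053093) lie side by side on the minus strand of chromosome 14 (GRCm38), at 54941921 to 54966927 and 54970684 to 54994626. Their coding sequences of 5814 and 5805 bases were 91.7% identical over 5802 aligned bases, with a longest identical run of 245 bases. Of all 50-base windows of the Myh7 coding sequence 23.9% also occurred in Myh6, and of 100-base windows 12.0%. The rest of the sequence tells the genes apart, as in the 60 bases where they are least alike (bases 3220 to 3279 of the Myh7 and 3226 to 3285 of the Myh6 coding sequence). There 27 bases differ, in capitals.
Myh7: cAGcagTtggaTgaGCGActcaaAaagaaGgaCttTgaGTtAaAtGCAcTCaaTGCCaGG
Myh6: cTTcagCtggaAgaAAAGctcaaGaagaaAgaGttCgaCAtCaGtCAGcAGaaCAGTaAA
How reads that match both genes were divided is not stated in the labels, so the split between Myh6 and Myh7 is uncertain. In WT the mean of Myh6 was 1773 FPKM and that of Myh7 111, so Myh6 reads given to Myh7 could weigh heavily on the Myh7 level and share. The windows count exact matches only, and the size of this uncertainty was not tested. Myh7b shared 0 such windows of 50 bases with either gene, and the same held between Myl7 and Myl2 (62.3% identity), Myl4 and Myl3 (77.0%) and Mybpc2 and Mybpc3 (63.9%).

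Of the 9 genes, 3 rose in the PKI-labelled libraries, namely Myh7, Mybpc3 and Mybpc2, and 1 fell, Myl2. Among all tested genes 39.4% were called, 36.4% higher and 2.96% lower. After scaling, where 17.0% of all tested genes were called, Myh7 and Mybpc2 were higher (7.82% of all tested genes) and Myl2, Myl3 and Myh6 lower (9.18%). The median log2 change of the 9 genes was 0.01 as deposited and −0.28 after scaling. The 3 genes that rose had every PKI-labelled library above every WT library, as did 51.3% of all tested genes. Myl2 had every PKI-labelled library below every WT library (4.53% of all tested genes). The values of the other 5 genes overlapped.

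**Figure D1:**
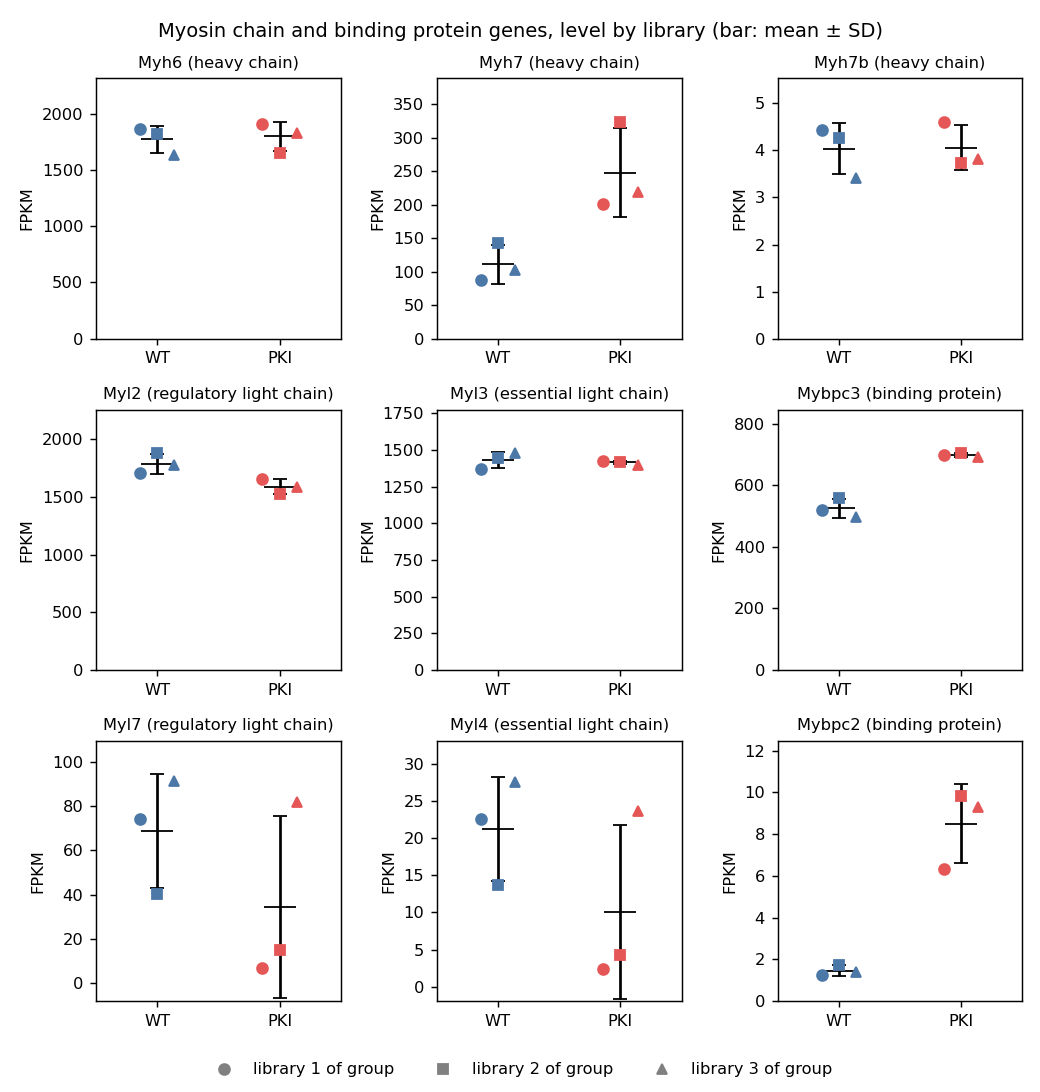
Level (FPKM) of each of the 9 genes in each library, 1 panel per gene with its own linear axis; points are libraries, bars the mean ± SD of the 3 libraries per group. Myh7, Mybpc3 and Mybpc2 lie higher in all 3 PKI-labelled libraries, while Myl7 and Myl4 are low in 2 of these and near WT in the other.

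The genes covered a wide range of levels. In WT, Myl2 (1790 ± 86.7 FPKM, SD, n = 3) and Myh6 (1773 ± 119) overlapped at the top, followed by Myl3 (1433 ± 54.9) and Mybpc3 (525 ± 32.0). By mean FPKM over the 6 libraries, Myh6, Myl2, Myl3 and Mybpc3 ranked 4, 5, 7 and 19 among 16347 nuclear protein-coding genes above 0. Myh7 (111 ± 29.2 FPKM in WT) and Myl7 (68.7 ± 25.9) overlapped in WT, and Myl4 (21.3 ± 7.04) lay below both. Myh7b was at 4.04 ± 0.541 FPKM in WT and above Mybpc2 (1.46 ± 0.251) in every WT library. In PKI-labelled libraries this order was turned, with every Mybpc2 value above every Myh7b value.

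The beta heavy chain rose while the alpha heavy chain did not pass the test. Myh7 was at 87.3, 143.7 and 102 FPKM in WT and at 201, 324 and 219.5 in the PKI-labelled libraries, 2.24-fold higher (log2 1.15, SE 0.23, 95% interval 0.618 to 1.69, limma adjusted p = 0.00924). All 3 PKI-labelled libraries were above all WT libraries, and the second library was the highest in each group. After scaling the log2 change was 0.86 (adjusted p = 0.0426), and that call was kept without WT replicate 2 but lost when any 1 of the other 5 libraries was left out (adjusted p up to 0.125, without WT replicate 3). As deposited it was kept whichever library was left out.

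Myh6 was at 1860, 1823 and 1637 FPKM in WT and at 1909, 1655 and 1831 in the PKI-labelled libraries, and the groups overlapped. Its log2 change was 0.02 (SE 0.07, 95% interval −0.150 to 0.189, limma adjusted p = 0.834). After scaling it was −0.28 (adjusted p = 0.0442), with all PKI-labelled libraries below WT, and that call was lost whichever library was left out. Myh7b (ENSMUSG00000074652, chromosome 2: 155611212 to 155634307, plus strand), an ancient heavy chain made at low levels in heart and slow muscle, was at 4.44, 4.25 and 3.42 FPKM in WT and at 4.61, 3.73 and 3.83 in the PKI-labelled libraries. These values overlapped (log2 0.01, 95% interval −0.247 to 0.260, adjusted p = 0.964; −0.23 after scaling, adjusted p = 0.184).

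Shares within a library do not depend on any scaling between libraries. Myh7 made up 4.47%, 7.29% and 5.86% of heavy chain FPKM in WT and 9.51%, 16.3% and 10.7% in the PKI-labelled libraries, a mean of 5.87% ± 1.41 against 12.2% ± 3.65 (SD, n = 3 each). Every PKI-labelled library had a higher Myh7 share than every WT library. The difference of 6.30 percentage points gave p = 0.1 in the exact two-sided permutation test, the smallest value that 20 arrangements of 3 against 3 allow. It was 0.233 after Benjamini-Hochberg adjustment over the 7 shares and ratios tested in this way. Myh6 remained the main heavy chain in each library, at 92.5% to 95.3% in WT and 83.5% to 90.3% in the PKI-labelled libraries. Myh7b held 0.213% ± 0.0157 and 0.197% ± 0.0177, with overlapping values (exact permutation p = 0.3, adjusted 0.35). The ratio of Myh6 to Myh7 was between 12.7 and 21.3 in WT and between 5.11 and 9.50 in the PKI-labelled libraries. Summed over the 3 genes, heavy chain FPKM as deposited was 1888 ± 126 in WT and 2051 ± 65.7 in the PKI-labelled libraries. Unlike the shares, this sum depends on scaling between libraries. Myh6, the main part of it, was lower after scaling (log2 −0.28, limma adjusted p = 0.0442).

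**Figure D2:**
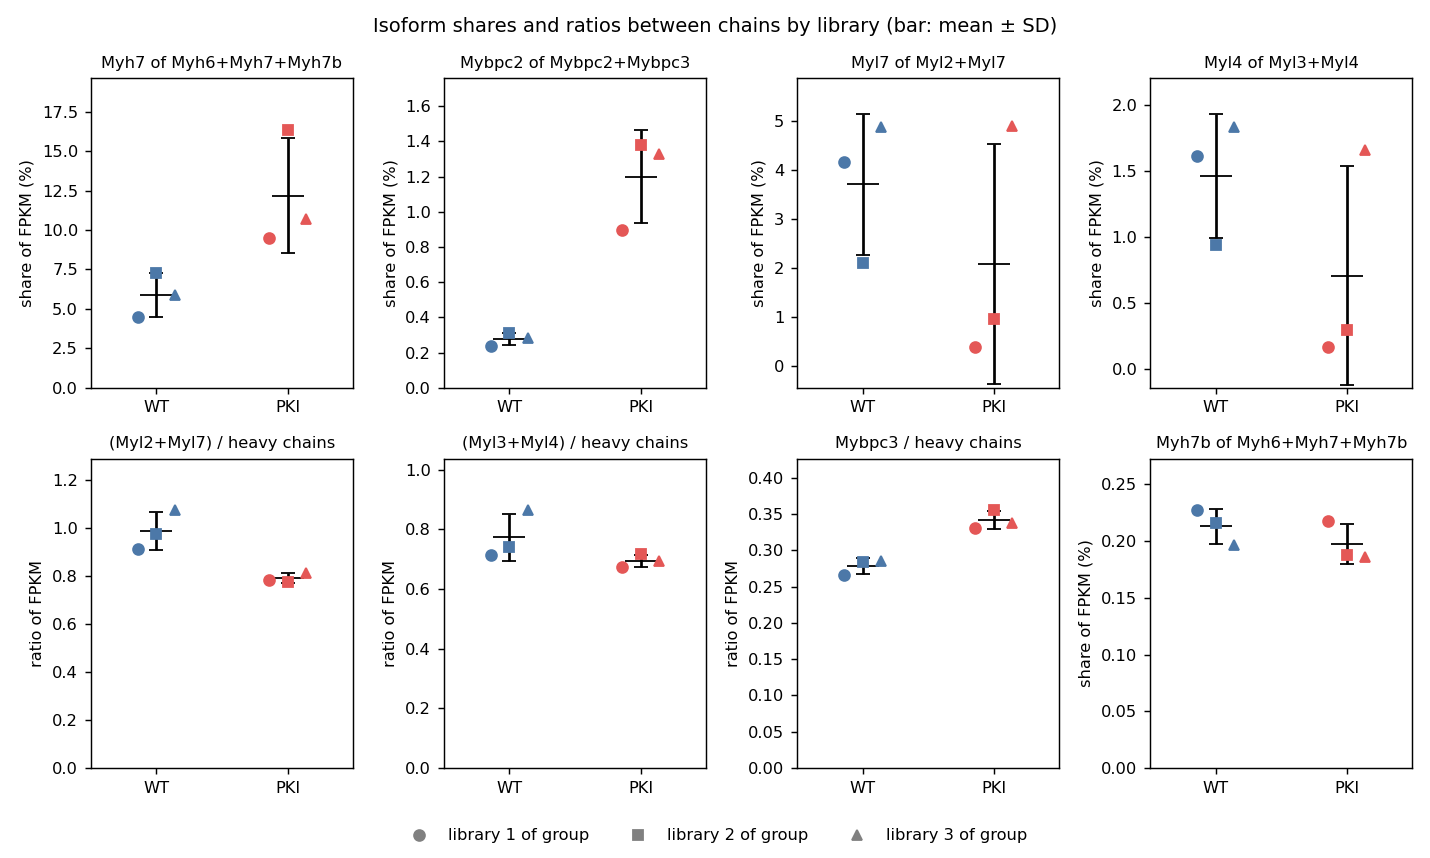
Isoform shares (percent of FPKM within heavy chains, binding proteins or a light chain class) and ratios of summed FPKM between chains, by library; points are libraries, bars the mean ± SD of 3. The Myh7 and Mybpc2 shares and the ratio of Mybpc3 to heavy chains are higher in every PKI-labelled library, and the ratio of regulatory light chains to heavy chains is lower in every one.

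The myosin-binding proteins both rose as deposited. Mybpc2 (ENSMUSG00000038670, chromosome 7: 44501699 to 44524656, minus strand), the isoform of fast skeletal muscle, was at 1.24, 1.73 and 1.41 FPKM in WT and at 6.33, 9.84 and 9.33 in the PKI-labelled libraries. Groups were well apart, with the lowest PKI-labelled library above the highest WT library by more than the whole range of WT. Mybpc2 was 5.81-fold higher (log2 1.93, SE 0.16, 95% interval 1.56 to 2.30, limma adjusted p = 0.000635), and the call held after scaling (log2 1.71, adjusted p = 0.00132) and without any 1 library in both fits. At a minimum mean of 5 FPKM Mybpc2 was no longer among the genes tested. The skeletal muscle list held 15 other markers, of which 3 were tested and 0 were called higher in limma as deposited (1, Casq1, at an unadjusted p under 0.05). Casq1, a calcium-binding protein of the sarcoplasmic reticulum, was at 1.52, 1.69 and 1.18 FPKM in WT and at 1.91, 2.56 and 4.83 in the PKI-labelled libraries, without overlap as deposited (log2 0.68, adjusted p = 0.0603). After scaling its groups overlapped (log2 0.48, limma adjusted p = 0.227). Ckm and Myl1 were not called as deposited (log2 −0.13 and −0.10), and Ckm was lower after scaling (log2 −0.43, adjusted p = 0.00711). The other 12 were too low to be tested, at 0.504 FPKM or less in every library, with the fast skeletal heavy chain Myh4 listed at 0 in all 6. Among these Tnnt3, a fast skeletal troponin named after its values were seen, was at 0.0859, 0 and 0.0622 FPKM in WT and at 0.307, 0.262 and 0.385 in the PKI-labelled libraries, also without overlap. The light chain gene Mylpf, likewise named after its values were seen, went the other way without overlap. It was at 0.411, 0.504 and 0.325 FPKM in WT and at 0.0852, 0.285 and 0.106 in the PKI-labelled libraries. The part of skeletal muscle cells in the Mybpc2 values was not tested.

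Mybpc3 (ENSMUSG00000002100, chromosome 2: 91118144 to 91136516, plus strand), the cardiac isoform, was at 519, 560 and 497 FPKM in WT and at 700.5, 704.5 and 693 in the PKI-labelled libraries, 1.33-fold higher. The groups did not overlap, and the PKI-labelled libraries lay close together. Its log2 change was 0.41 (SE 0.055, limma adjusted p = 0.00252) as deposited. After scaling it was 0.12 (95% interval −0.0181 to 0.249) and did not pass (adjusted p = 0.218). Per library, Mybpc3 stood at 0.278 ± 0.0110 of summed heavy chain FPKM in WT and at 0.341 ± 0.0125 in the PKI-labelled libraries (SD, n = 3 each), with no overlap. Mybpc2 made up 0.239%, 0.309% and 0.283% of binding protein FPKM in WT and 0.896%, 1.38% and 1.33% in the PKI-labelled libraries. Each PKI-labelled library was above each WT library (exact two-sided permutation p = 0.1, adjusted 0.233), and Mybpc3 made up the rest.

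Among the ventricular light chains, the regulatory chain was lower and the essential chain did not pass as deposited. Myl2 (ENSMUSG00000013936, chromosome 5: 122100951 to 122113472, plus strand), whose phosphorylation raises contractile force, was at 1709, 1881 and 1780 FPKM in WT and at 1653, 1525 and 1590 in the PKI-labelled libraries. No PKI-labelled library reached the lowest WT value. The log2 change was −0.17 (SE 0.05, limma adjusted p = 0.0396), a call lost without any 1 library other than WT replicate 1 (adjusted p from 0.0521 without PKI replicate 1 to 0.111 without WT replicate 2), without a filter (0.116), without the variance trend (0.0887) and with quantile normalisation (0.141). After scaling it was −0.47 (adjusted p = 0.00350), and this call held without any 1 library. Myl3 (ENSMUSG00000059741, chromosome 9: 110741861 to 110769798, plus strand), the ventricular essential chain, was at 1373, 1448 and 1479 FPKM in WT and at 1426, 1417 and 1401 in the PKI-labelled libraries. Its values overlapped (log2 −0.02, 95% interval −0.122 to 0.0856, adjusted p = 0.753), and after scaling it was lower (log2 −0.32, adjusted p = 0.00803).

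Relative to the heavy chains, the regulatory light chains were lower in every PKI-labelled library. The ratio of Myl2 plus Myl7 to the 3 heavy chains was 0.913, 0.975 and 1.07 in WT and 0.785, 0.776 and 0.814 in the PKI-labelled libraries (exact two-sided permutation p = 0.1, adjusted 0.233). The same ratio of Myl3 plus Myl4 was 0.715, 0.742 and 0.865 in WT and 0.676, 0.716 and 0.694 in the PKI-labelled libraries, and these values overlapped (p = 0.2 in the exact test, adjusted 0.35). Within the 4 light chains, Myl2 held 54.02% ± 1.47 in WT and 52.1% ± 1.21 in the PKI-labelled libraries, and Myl3 43.3% ± 0.495 and 46.4% ± 1.32 (SD, n = 3 each). The Myl3 share was higher in every PKI-labelled library, while the Myl2 shares overlapped.

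**Figure D3:**
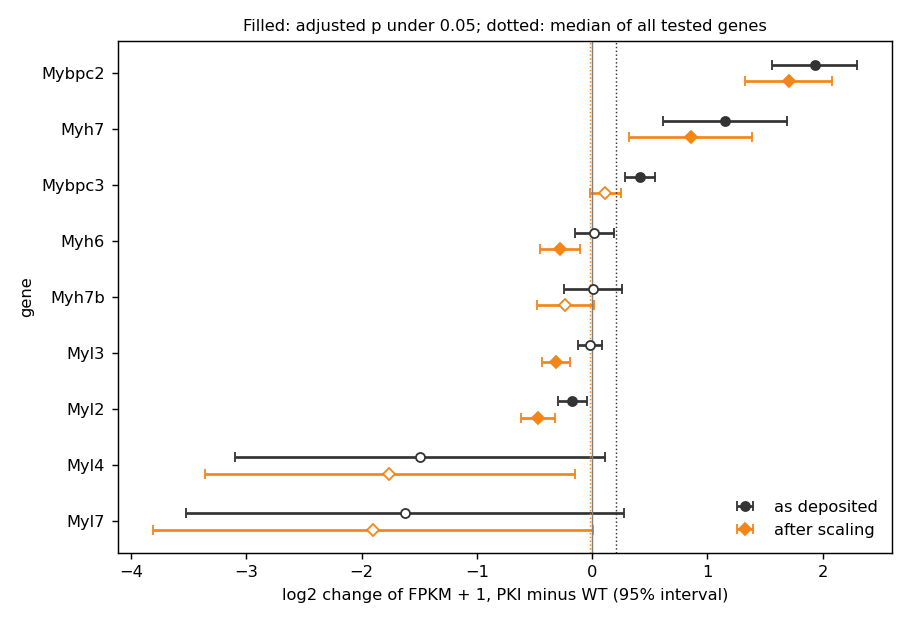
Log2 change of FPKM + 1 (PKI-labelled libraries minus WT) of the 9 genes with 95% intervals from limma, as deposited (circles) and after median-of-ratios scaling (diamonds); filled symbols are called at an adjusted p under 0.05, dotted lines the medians of all tested genes (0.21 and −0.02). Mybpc2 and Myh7 lie to the right of 0 in both, and the intervals of Myl4 and Myl7 are wide.

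The atrial light chains differed more between libraries of 1 group than any of the other 7 genes. Myl7 (ENSMUSG00000020469, chromosome 11: 5896637 to 5898782, minus strand), the atrial regulatory chain, was at 74.3, 40.5 and 91.3 FPKM in WT and at 6.61, 14.8 and 81.9 in the PKI-labelled libraries. Myl4 (ENSMUSG00000061086, chromosome 11: 104550663 to 104595753, plus strand), the atrial and fetal essential chain, was at 22.5, 13.7 and 27.6 FPKM in WT and at 2.44, 4.23 and 23.6 in the PKI-labelled libraries. In both genes the first and second PKI-labelled libraries were below all WT libraries and the third lay within the WT range. The highest PKI-labelled library was 12.4 times the lowest for Myl7 and 9.70 times for Myl4, against 2.25 and 2.02 times within WT. The log2 changes of −1.62 (SE 0.81) and −1.49 (SE 0.68) did not pass (limma adjusted p = 0.144 and 0.117; 0.161 and 0.129 after scaling). Both sizes rested on single libraries. Without PKI replicate 1 the log2 changes were −0.87 and −0.92 (limma adjusted p = 0.356 and 0.293), and without PKI replicate 3 they were −2.59 and −2.34 and both were called lower (adjusted p = 0.0125 and 0.00743).

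Myl7 and Myl4 kept nearly the same proportion in all 6 libraries. The ratio of Myl7 to Myl4 FPKM was 3.30, 2.96 and 3.31 in WT and 2.72, 3.49 and 3.47 in the PKI-labelled libraries. Their log2 values of FPKM + 1 in the 6 libraries were centred on each gene's own mean. These centred values differed by a root mean square of 0.201, against a median of 1.42 between Myl7 and all tested genes. Genes with no symbol or only a provisional one were left out of the ranking that follows. Outside the 9 genes the closest to Myl7 were then Sln (0.394), the atrial inhibitor of the calcium pump, and Mybphl (0.593). Mybphl is a myosin-binding protein H-like gene of atrium and conduction tissue. Sln and Mybphl were followed by the kinase gene Sbk3 (0.839), Paip2 (0.983) and Ccdc127 (1.01). Sln was at 10.2, 6.02 and 16.2 FPKM in WT and at 1.02, 0.901 and 8.99 in the PKI-labelled libraries. Mybphl was at 7.55, 4.57 and 10.2 and at 1.82, 1.52 and 8.67. As with the light chains, the third PKI-labelled library was the highest of its group and the second WT library the lowest of WT.

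**Figure D4:**
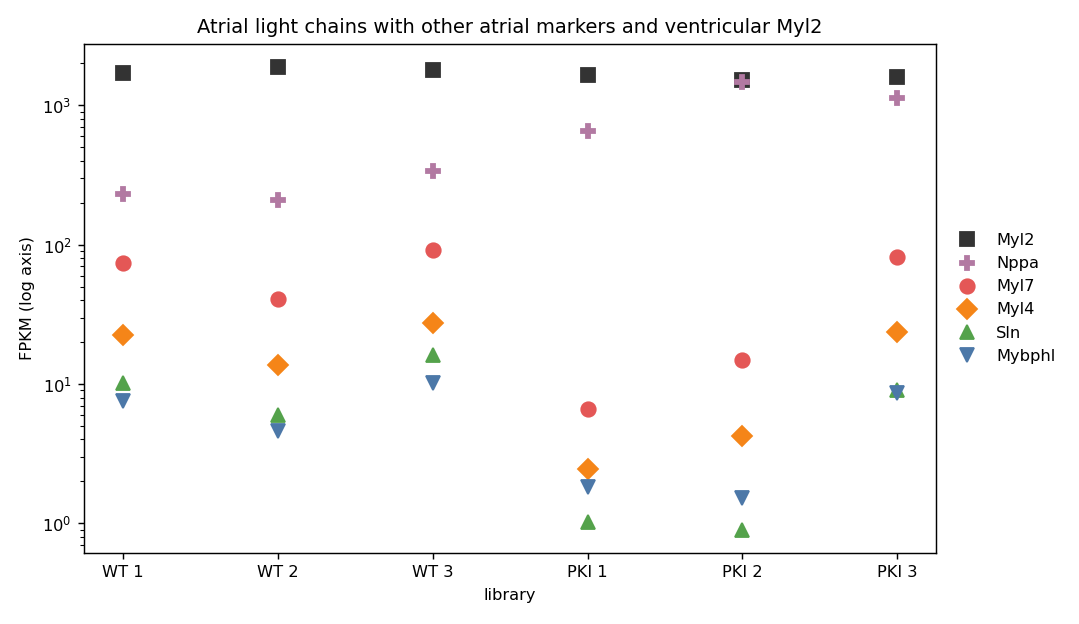
FPKM (log axis) of the atrial light chains Myl7 and Myl4, the atrial markers Sln, Mybphl and Nppa and the ventricular light chain Myl2 in each of the 6 libraries. Myl7, Myl4, Sln and Mybphl are low together in the first and second PKI-labelled libraries, Nppa is higher in all PKI-labelled libraries, and Myl2 stays between 1525 and 1881 FPKM.

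The wider list of atrial markers did not follow one direction. Of 16 markers, Myl7 and Myl4 included, 13 were tested. As deposited 3 rose (Nppa, Pam and Clu) and 2 fell (Kcnj3 and Kcnj5), where 36.4% of all tested genes rose and 2.96% fell. The median log2 change of the markers was −0.56. After scaling 3 were higher and 3 lower, where 7.82% and 9.18% of all tested genes were. Summed without Myl7 and Myl4 the list was at 348 to 514 FPKM in WT and at 843 to 1693 in the PKI-labelled libraries, most of it Nppa, which ventricles also make under load. Without Nppa it was at 138.5 to 175 and at 189 to 216.5 FPKM. When Clu and Pam were also left out, a choice made after their values were seen, the other 11 markers summed to 55.9, 43.6 and 73.4 FPKM in WT and to 25.5, 29.2 and 47.2 in the PKI-labelled libraries, the opposite direction, with overlapping groups. These sums are all as deposited, and whether their groups overlap depends on scaling between libraries. Bmp10, a growth factor of the right atrium, was at 1.13, 0.148 and 3.97 FPKM in WT and at 1.92, 0.0966 and 0.180 in the PKI-labelled libraries. The part of atrial tissue in the Myl7 and Myl4 values was not tested. Myl7 made up 2.11% to 4.88% of regulatory light chain FPKM in WT and 0.399% to 4.90% in the PKI-labelled libraries (exact permutation p = 0.4, adjusted 0.4), and Myl4 0.936% to 1.83% and 0.170% to 1.66% of the essential chains (p = 0.3 in the exact test, adjusted 0.35). Both shares overlapped between groups.

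Of 10 ventricular heart muscle markers, not all particular to the ventricle, 9 were tested, including Myl2, Myl3, Myh6 and Mybpc3. As deposited 2 rose (Mybpc3 and Actc1) and 2 fell (Myl2 and Tnni3), where 36.4% of all tested genes rose and 2.96% fell. After scaling 0 were called higher (also 0 at an unadjusted p under 0.05) and 6 lower, where 7.82% and 9.18% of all tested genes were. These 6 were Myl2, Myl3 and Myh6, already described among the 9 genes, and Tnnt2, Tnni3 and Ryr2. The 6 markers that are not myosin genes summed to 5152 to 5624 FPKM in WT and 5799 to 6387 in the PKI-labelled libraries. This sum was led by Actc1, the cardiac actin, at log2 0.32 (limma adjusted p = 0.0122) and 0.02 after scaling. The troponin gene Tnni3 was lower (log2 −0.275, and −0.57 after scaling). Tnnt2 and Ryr2 were at −0.001 and −0.16 (−0.30 and −0.45 after scaling). Irx4 was at 0.19 (−0.08 after scaling), and Hey2 was not tested. All sums in this paragraph are as deposited. Fibroblast markers rose in 7 of 8 (summed 86.3 to 128 FPKM in WT and 256 to 333 in the PKI-labelled libraries), macrophage markers in 7 of 8 (70.5 to 108 and 211 to 228), smooth muscle markers in 4 of 7 (127 to 157 and 193 to 247.5) and endothelial markers in 2 of 6 (66.3 to 70.4 and 73.2 to 80.4), where 36.4% of all tested genes rose, so that the endothelial count was near the share of all genes. After scaling these counts were 7, 7, 1 and 0 (endothelial also 0 at an unadjusted p under 0.05 in limma), with 1 endothelial marker lower. In whole ventricle, fewer cells of a type and less RNA per cell cannot be told apart, and the part of these other cells in the myosin values was not tested.

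Other genes of the myosin system were taken from lists by function. Of 32 other myosin chains, binding proteins, kinases, phosphatase subunits and chaperones, 19 were tested, 7 rose and 1 fell as deposited (3 and 3 after scaling). The share that rose was near that of all tested genes (36.4% as deposited). Their median log2 change was 0.28, against 0.21 for all tested genes (0.02 and −0.02 after scaling). The 4 genes with the smallest p as deposited were Myl12a, Myl6, Myh9 and Myh10, while after scaling Mylk4, Mylk3 and Unc45b, all lower, had smaller p than any of these. Myl12a, a regulatory light chain of non-muscle myosin, was at 87.7, 81.7 and 91.2 FPKM in WT and at 146, 159.5 and 181 in the PKI-labelled libraries (log2 0.89, limma adjusted p = 0.000987; 0.59 after scaling, adjusted p = 0.00705). Myl6, the essential light chain of non-muscle and smooth muscle myosin, rose by a log2 change of 0.66 (adjusted p = 0.00195; 0.38 after scaling). The non-muscle heavy chains Myh9 and Myh10 rose by 0.49 and 0.67 on the log2 scale (adjusted p = 0.00429 and 0.00431), and after scaling Myh10 was called (log2 0.46) and Myh9 was not (log2 0.24, adjusted p = 0.0700).

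The kinase genes Mylk3 and Mylk4 did not rise. Mylk3, the cardiac myosin light chain kinase, was at 111, 100.4 and 99.6 FPKM in WT and at 98.3, 98.1 and 93.3 in the PKI-labelled libraries, below every WT value (log2 −0.10, limma adjusted p = 0.230; −0.39 after scaling, adjusted p = 0.00502). Mylk4, a related kinase named here after its values were seen, fell from 25.8, 21.5 and 20.1 FPKM to 16.2, 14.9 and 15.7 (log2 −0.49, adjusted p = 0.00963; −0.77 after scaling). The myosin chaperone gene Unc45b and the methyltransferase gene Smyd1, also named after their values were seen, were at log2 −0.10 and 0.13 and were not called as deposited. After scaling Unc45b was lower (log2 −0.38, adjusted p = 0.00562) and Smyd1 was at log2 −0.17, not called.

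Of 9 thick filament partners, 8 were tested and 3 rose as deposited, Trim54, Myom1 and Obsl1, a share near the 36.4% of all tested genes, and after scaling 0 were called higher (also 0 at an unadjusted p under 0.05) and 2 lower. The M-band protein gene Myom1 was at log2 0.29 (limma adjusted p = 0.0203) as deposited and −0.01 after scaling, and Obsl1 at 0.24 and 0.00. The ubiquitin ligase gene Trim54 was at 0.35 and 0.05, and its relative Trim55 at 0.26 and −0.03. Myom2 was at log2 0.00 as deposited and −0.30 after scaling (adjusted p = 0.0164).

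Of 19 known regulators of myosin genes, 13 were tested and 2 rose as deposited, Purb and Gata4, a smaller share than the 36.4% of all tested genes (this difference was not tested). After scaling 0 were called in limma (1 higher and 2 lower at an unadjusted p under 0.05). Purb, which encodes a repressor of myosin heavy chain genes, was at 5.04, 4.77 and 4.60 FPKM in WT and at 7.07, 6.62 and 7.46 in the PKI-labelled libraries (log2 0.47, adjusted p = 0.00386; 0.22 after scaling, adjusted p = 0.0836). Gata4, a cardiac transcription factor, was at log2 0.21 (limma adjusted p = 0.0259) and −0.07 after scaling. Nkx2-5 was at 0.31 (0.02 after scaling) and Pura at 0.24 (0.02 after scaling), neither called. Tead1, which binds the M-CAT motif and is named here after its values were seen, was at 8.94, 9.002 and 6.25 FPKM in WT and at 0.818, 12.1 and 0.816 in the PKI-labelled libraries, so 1 PKI-labelled library was the highest of all and the others were the lowest (adjusted p = 0.166).

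Promoters are shown for the pair of neighbouring heavy chains, for Mybpc2, whose fold was the largest of the 9 genes, and for Myl7, whose values spread most between libraries. They are RefSeq windows (GRCm38.p6) from 250 bases before to 50 after an annotated start, on the gene's strand. Capitals mark matches on either strand to the M-CAT motif (GGAATG or CATTCC), to TATAAA or its reverse complement, and to the CArG box and the MEF2 site, searched by their consensus; matches did not overlap in these windows.
Myh6, chr14:54966558-54966857, minus strand: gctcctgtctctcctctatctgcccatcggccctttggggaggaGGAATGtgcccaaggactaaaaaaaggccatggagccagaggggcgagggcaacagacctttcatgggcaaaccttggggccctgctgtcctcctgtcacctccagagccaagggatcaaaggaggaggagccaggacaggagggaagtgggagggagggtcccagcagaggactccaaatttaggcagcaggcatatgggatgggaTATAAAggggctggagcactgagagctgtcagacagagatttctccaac
Myh7, chr14:54994577-54994876, minus strand: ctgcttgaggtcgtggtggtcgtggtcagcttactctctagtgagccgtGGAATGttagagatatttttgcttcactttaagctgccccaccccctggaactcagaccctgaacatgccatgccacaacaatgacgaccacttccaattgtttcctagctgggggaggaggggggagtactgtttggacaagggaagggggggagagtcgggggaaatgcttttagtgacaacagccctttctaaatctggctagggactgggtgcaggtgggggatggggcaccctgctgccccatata
Mybpc2, chr7:44524620-44524919, minus strand: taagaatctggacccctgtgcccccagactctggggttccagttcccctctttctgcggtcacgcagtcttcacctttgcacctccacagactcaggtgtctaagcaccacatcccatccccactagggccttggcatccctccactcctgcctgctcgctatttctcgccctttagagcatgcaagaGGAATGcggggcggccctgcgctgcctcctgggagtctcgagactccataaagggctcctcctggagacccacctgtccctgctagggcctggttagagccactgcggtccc
Myl7, chr11:5898733-5899032, minus strand: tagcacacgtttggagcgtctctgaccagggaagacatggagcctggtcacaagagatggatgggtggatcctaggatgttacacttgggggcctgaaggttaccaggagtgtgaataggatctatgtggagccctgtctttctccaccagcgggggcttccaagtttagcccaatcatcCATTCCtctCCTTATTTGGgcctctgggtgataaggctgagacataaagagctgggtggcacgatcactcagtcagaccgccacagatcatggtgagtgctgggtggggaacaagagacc
All 9 genes matched, with 11 windows, as Myh7 and Myl2 each had more than 1 annotated start. An M-CAT motif was in 5 of these 11 windows, those of Myh6, Myl7, Myl3 and Mybpc2 and 1 of the Myh7 windows, and in 14.7% of all 32841 promoter windows. The second Myh7 window (chr14:54994500-54994799), not shown, overlaps the one shown but held no M-CAT motif. The motif of the window shown lies before the first base of this second window, so its absence there depends on the window edge. The Myh7 window shown is the one that holds the motif. A CArG box was in those of Myl7 and Myl3 (1.63% of all windows) and a MEF2 site in that of Mybpc3 (3.19%). TATAAA was in that of Myh6 and in 1 of the Myl2 windows (13.6%). It began at base 2 after the start in Myh6 and, as its reverse complement, at −216 in Myl2. The Myl2 windows (chr5:122092474-122092773 and chr5:122092939-122093238) both lie before the first base of the gene given above, 122100951. The match is of letters only.

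Reads of overlapping genes on the other strand cannot be told apart, because the labels name a library kit that does not mark strand. Mhrt, a noncoding RNA antisense to Myh7, was at 13.0, 9.55 and 8.95 FPKM in WT and at 14.97, 7.52 and 11.6 in the PKI-labelled libraries. Its groups overlapped and its values were well below those of Myh7. Trpc4ap, which overlaps Myh7b on the other strand, was at 5.54 to 6.75 FPKM, above Myh7b in every library, so the Myh7b level is uncertain for that reason.

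The genes whose profiles over the 6 libraries were closest to Myh7 were Btg2 (root mean square log2 difference 0.0903), Thbs1 (0.153), Sik1 (0.163), Lox (0.191) and Atf3 (0.201), against a median of 0.571 over all tested genes. Btg2, an antiproliferative gene, was at 3.64, 6.51 and 4.92 FPKM in WT and at 10.8, 14.8 and 10.9 in the PKI-labelled libraries, also with the second library the highest of each group. Thbs1 and Lox encode matrix proteins, Sik1 a kinase and Atf3 a transcription factor of the stress response. Closest to Mybpc2 were Xirp2 (0.152), which encodes a protein of the intercalated disc that binds actin, the matrix genes Comp (0.207), Aspn (0.223) and Ctgf (0.227), and Mthfd2 (0.235) of mitochondrial folate metabolism (median over all tested genes 0.892). Xirp2 was at 29.1, 26.5 and 25.02 FPKM in WT and at 91.7, 125 and 106 in the PKI-labelled libraries. Both groups enter this measure.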

How the data were processed

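Left ventricular RNA was sequenced in 6 libraries after Trizol extraction and library preparation with the Illumina TruSeq RNA kit, per the labels' protocols. The deposited values are FPKM made by the authors, 1 per gene and library; the submitters' processing notes name CASAVA, Bowtie 0.12.2 and mm9 with no role or order, and for the program and annotation behind the FPKM values: not given in the sources used here. Both deposited gene tables held identical values. Depth is unknown, so no counting interval is given. Positions are from GENCODE M21 (GRCm38), looked up by identifier; coding sequences are from its transcripts, stop codon left out, taking the longest complete one per gene and aligned with Biopython 1.88.

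Group membership follows the titles. The 9907 of 52550 genes whose mean reached 1 FPKM were fitted in limma 3.58.1 (R 4.3.3) on log2(FPKM + 1), two-sided, with the variance trend on and no block. The same fit was run after dividing each library by its median-of-ratios size factor, with the same genes. The fit was tested on simulated data. Shares and ratios were compared by exact permutation (SciPy 1.17.1). The genes described and the lists were chosen with earlier results of these data known. Named list genes were the 4 with the smallest p per list and those at a mean of 100 FPKM or more. The 5 genes nearest in profile to Myl7, Myh7 and Mybpc2 were also named, leaving out genes with no symbol or only a provisional one. All others were named after their values were seen. The fit was repeated with quantile normalisation, with pseudocounts of 0.1 or 0.5, with all genes kept, at a mean of 5 FPKM or more, with the trend off, with replicate number as a block, and without each library in turn.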

Additional observations from a re-analysis of the deposited data

How the results depend on the processing

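Mybpc2 and Myh7 were called higher under every alternative in which they were tested, apart from Myh7 after scaling with a library left out. Of the 9 genes, the number called lower was 1 as deposited, 3 after median-of-ratios scaling (Myh6, Myl2 and Myl3), and 0 with quantile normalisation, without a filter, without the variance trend and with the replicate block; leaving out a library gave 0 to 2, the 2 being Myl7 and Myl4 without PKI replicate 3. After scaling, leaving out a library (added after seeing the data) left 1 to 2 called higher and 2 to 4 called lower. The genes called in all, 3902, were 1684 after scaling (775 higher, 909 lower), 1515 with quantile normalisation (753 and 762) and 1925 at a minimum mean of 5 FPKM, and 2344 (without WT replicate 3) to 3425 (without WT replicate 1) when a library was left out, with 2498 without PKI replicate 3. The cause was not tested, apart from the fewer genes tested at the higher minimum.

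Myh6 changed sign after scaling (log2 −0.28), and when a library was left out ranged from −0.0367 to 0.0782. Myh7b changed sign after scaling (−0.23), with quantile normalisation (−0.23), and ranged from −0.0844 to 0.0647 when a library was left out; Myl3 ranged from −0.0491 to 0.00484. The sign changed without WT replicate 3 in all 3 genes and also without PKI replicate 1 in Myh6 and Myh7b. They were near 0 as deposited. The difference in Myh7 share was 4.22 to 7.64 percentage points when a library was left out, and each of the 7 shares and ratios moved by less than 1 SD under every alternative run for it. The replicate block gave 2849 called genes and 0 genes called lower of the 9. Deviations of same-numbered libraries from their group means correlated across genes at −0.104, 0.00115 and 0.0529, and not every library correlated best with its own number. Taken over all genes, these correlations cannot show whether same-numbered libraries share something that affects only some genes.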
